A study of Glycine max with 11 samples.

Results

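The 2 genes described here encode the soybean heat shock transcription factors HSFA3 (`Glyma.03G191100.1`) and HSFA6b (`Glyma.03G157300.1`), out of 56044 genes counted in 11 RNA-seq libraries of whole seeds. They were chosen by measured values of these same libraries: the study picked them because their transcripts followed the acquisition of seed longevity during maturation, and earlier results had shown them to differ between drying and maturation. Their changes are therefore given as a description, without a test. Both identifiers place the genes on chromosome 3. No start, end or exon structure was used here.

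All seeds came from field-grown Glycine max cv. BRS284 with no transgene. Seeds of stage 7.2, which are immature, were either dried quickly after harvest at 40% relative humidity and 30 °C until they held 10% moisture on a dry weight basis (2 libraries, called dried 7.2 seeds), or frozen fresh (2 libraries, fresh 7.2 seeds). The other freshly harvested seeds came from stages 7.1, 7.3, 8.1, 8.2 and 8.3 (1 library each) and from mature stage 9 (2 libraries). Each stage pooled seeds of many plants of a single crop, and the study calls the replicates biological, although GEO's labels do not say whether they were separate plants or plots. The values of error given here measure the spread between these libraries. Because whole seeds were extracted, a lower level in all cells and fewer cells expressing a gene cannot be told apart.

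Heat shock factors bind heat shock elements in promoters and switch on genes for chaperones, the proteins that keep other proteins from clumping and help them refold. Plant class A factors activate transcription, whereas most class B factors lack an activation domain and often repress. In Arabidopsis, HSFA3 acts after DREB2A, a factor of the response to drought and heat, and HSFA6b links heat responses to abscisic acid, the hormone of seed maturation and desiccation. Small heat shock proteins, among the best known targets of the family, accumulate in seeds late in maturation.

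The study also designed RT-qPCR primer pairs for both transcripts. They are shown as the study gave them for each name, and all are written in lower case from 5′ to 3′. The genes described here were taken by identifier, and the primers were not aligned to any transcript. The RT-qPCR values themselves were not analysed here.
HSFA3 forward: catcaggttggtggcaata
HSFA3 reverse: gcattagcacactcctttct
HSFA6B forward: gagtgtcagagttggaagtg
HSFA6B reverse: ccagcctctcttgtgattg

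The libraries held 12881662 to 60626937 counts and detected 34689 to 41253 genes. The smallest and the largest were the dried 7.2 libraries. Replicate 2 of the dried seeds held 4.71 times the counts of replicate 1, but its size factor, the scale by which counts were made comparable, was 3.46 times as large. The measures of drying below are therefore also given on the scale of library totals where that changes them. The tissue was checked with oleosins, the coat proteins of seed oil bodies: all 3 oleosin genes named in the study's tables were detected in all 11 libraries.

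Transcripts of both factors were scarce at stage 7.1 and abundant at maturity, but they took different paths. HSFA3 came close to its mature level at stage 8.2 and stood at 83.4% and 115% of its mean at stage 9 in the libraries of seeds dried at stage 7.2. HSFA6b climbed in small steps after stage 7.2, more than doubled at the last step into stage 9 and, in the dried libraries, stood at 31.4% and 23.4% of its mean at stage 9. Levels are normalised read counts, which are deposited counts divided by the size factor of the library. They are not divided by transcript length, so levels of the 2 genes are not compared with each other.

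HSFA3 had 322 and 442 normalised counts in dried 7.2 seeds. In fresh seeds it had 40.5 at stage 7.1 and 134 and 109.9 at stage 7.2. It had 194 at stage 7.3, 214 at stage 8.1, 351 at stage 8.2, 348 at stage 8.3 and, in the mature libraries of stage 9, 355 and 416. Stages 8.2 and 8.3 and replicate 1 of stage 9 were almost level. In normalised counts, dried replicate 2 was above each of the 9 fresh libraries, and dried replicate 1 lay between stages 8.1 and 8.2. As counts scaled to library totals alone (CPM), the dried libraries had 12.7 and 12.8, both between stage 8.1 (10.0) and stages 8.3 (14.4) and 8.2 (17.9), so the rank of dried replicate 2 depends on the scale.

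HSFA6b had 168 and 125 normalised counts in dried 7.2 seeds. In fresh seeds it had 7.09 at stage 7.1 and 76.4 and 77.2 at stage 7.2. It had 120.4 at stage 7.3, 162 at stage 8.1, 194 at stage 8.2, 249 at stage 8.3 and, in the mature libraries of stage 9, 535 and 533. Every fresh stage stood above the stage before it, and both stage 9 libraries stood far above the other 9 libraries. The level at stage 7.1 rests on 7 counts, with an exact Poisson 95% interval of 2.85 to 14.6 normalised counts. Such intervals cover counting error only, and the reads carry no molecular identifiers.

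**Figure D1:**
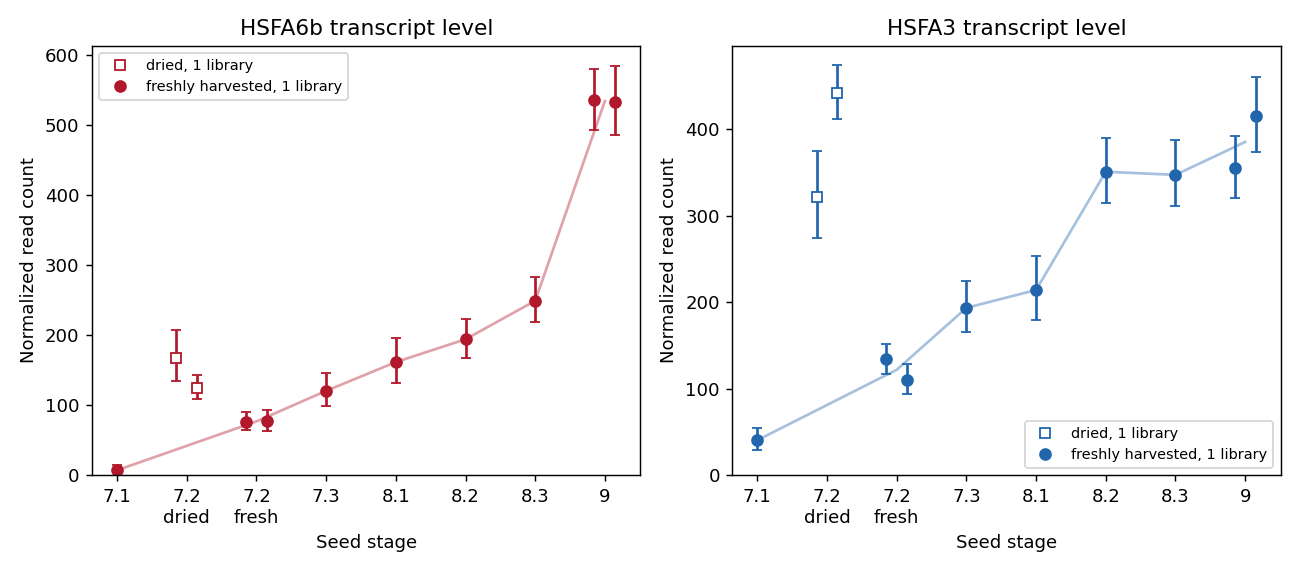
Normalised read count (vertical axis) by seed stage (horizontal axis) for HSFA6b on the left and HSFA3 on the right; each point is 1 library, open squares are dried and filled circles freshly harvested seeds, bars are exact Poisson 95% intervals of the counts, and the line joins stage means of fresh seeds. The dried HSFA3 points (322 and 442) sit at the height of stage 9, whereas the dried HSFA6b points (168 and 125) sit at the height of stages 7.3 to 8.2.

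Across the whole course from stage 7.1 to stage 9, HSFA3 increased 9.52-fold (3.25 on the log2 scale) and HSFA6b 75.4-fold (6.24). The fold of HSFA6b depends on the 7 counts at stage 7.1. Steps between adjacent stages were taken as log2 ratios of normalised counts, with replicates averaged at stages 7.2 and 9. As 5 of the 7 stages had a single library, no step was tested, and each is set beside the share of 28767 genes (mean of at least 10 normalised counts) that increased at least 2-fold in that step.

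The first step, that into stage 7.2, was the largest on the log2 scale for both factors. HSFA6b increased 10.8-fold, a log2 change of 3.44 with an exact 95% counting interval of 2.37 to 4.77. HSFA3 increased 3.01-fold, with a log2 change of 1.59 (interval 1.13 to 2.11). Of all genes, 20.7% increased at least 2-fold here, and the change of HSFA6b exceeded that of 97.4% of genes and that of HSFA3 88.5%. The next step, to stage 7.3, moved the factors almost equally. Its log2 changes were 0.65 for HSFA6b and 0.67 for HSFA3, below the 2-fold mark that 5.12% of genes reached.

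Between stages 7.3 and 8.2 the order of the factors changed from step to step. Into stage 8.1, HSFA6b changed by a log2 value of 0.42 (interval 0.02 to 0.83) and HSFA3 by 0.15 (−0.19 to 0.48), and 9.31% of genes increased at least 2-fold. Into stage 8.2, HSFA3 changed by 0.71 (0.42 to 1.01) and HSFA6b by 0.27 (−0.09 to 0.63), against a background of 8.32% of genes. In normalised counts this single step held 39.7% of the whole gain of HSFA3 between stages 7.1 and 9.

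From stage 8.2 onwards only HSFA6b had a step of 2-fold or more. Into stage 8.3, its log2 change was 0.36 (0.08 to 0.64) and that of HSFA3 was −0.01 (−0.24 to 0.21), while 8.74% of genes reached 2-fold. Into stage 9, HSFA6b increased 2.15-fold, a log2 change of 1.10 (0.90 to 1.31), in a step where 5.34% of genes increased at least 2-fold and where 95.4% of genes changed less or decreased. HSFA3 increased 1.11-fold in that step, with a log2 change of 0.15 (−0.05 to 0.33). The last step held 54.1% of the gain of HSFA6b in normalised counts but 17.7% of its gain on the log2 scale. Of the gain of HSFA3 in normalised counts it held 11%.

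**Figure D2:**
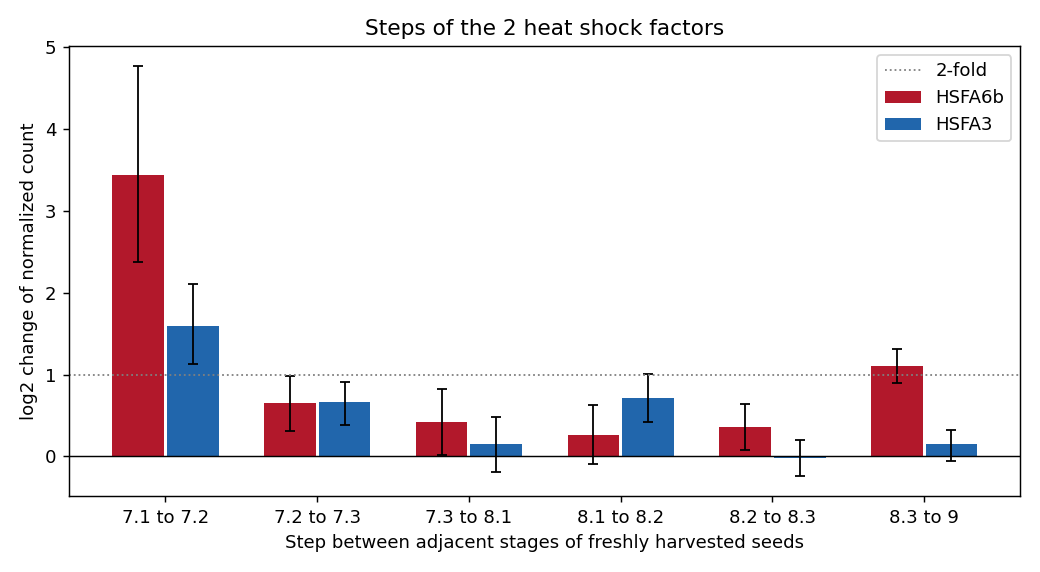
Change of the normalised count on the log2 scale (vertical axis) for each of the 6 steps between adjacent stages of freshly harvested seeds (horizontal axis); red bars are HSFA6b, blue bars HSFA3, error bars exact 95% counting intervals and the dotted line 2-fold. Both factors have their tallest bar at the first step, and at the last step the bar of HSFA6b (1.10) stands above 2-fold and that of HSFA3 (0.15) near 0.

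The step changes were then set beside the spread between replicates. In log2 terms, replicate 2 differed from replicate 1 by −0.29 in fresh 7.2 seeds and by 0.23 at stage 9 for HSFA3. For HSFA6b these differences were 0.02 and −0.01. The steps of HSFA3 into stages 8.1, 8.3 and 9 were thus no larger than its replicate differences, whereas the last step of HSFA6b, at 1.10, was larger than its own. The replicate differences of HSFA6b lay well inside the counting intervals of its libraries, so they understate the error of its levels, and its dried replicates differed by −0.42. Each replicate left out in turn, the last step of HSFA6b stayed at 1.10 and that of HSFA3 lay between 0.03 and 0.26.

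Enforced drying of immature seeds was compared with the fresh seeds of the same stage. Dried seeds were also detached and kept at 30 °C until dry, so water loss, temperature and elapsed time cannot be told apart. The word drying stands for this whole treatment. HSFA3 averaged 382 ± 85.3 normalised counts in dried 7.2 seeds and 122 ± 17.0 in fresh 7.2 seeds (SD, n = 2 each). HSFA6b averaged 146 ± 30.2 in dried 7.2 seeds and 76.8 ± 0.578 in fresh 7.2 seeds (SD, n = 2 each). For either gene, both dried libraries stood above both fresh ones in normalised counts. As CPM, which divides by library totals alone, HSFA6b had 6.60 and 3.61 in dried 7.2 seeds and 3.86 and 3.55 in fresh 7.2 seeds, so that its groups overlapped, while those of HSFA3 did not.

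In edgeR, fitted to all genes, the log2 fold change of dried over fresh 7.2 seeds was 1.67 (SE 0.247) for HSFA3, which is 3.19-fold. It was 0.93 (SE 0.239), or 1.90-fold, for HSFA6b, just under the 2-fold mark. Genes were called at an adjusted p under 0.05 and at least 2-fold. Of 30132 genes tested, 15.0% were called higher and 17.9% lower in dried seeds, and the log2 fold change of HSFA3 exceeded that of 92.0% of genes and that of HSFA6b 81.1%. As the 2 factors were chosen on values of these same libraries, no call is given for them.

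The position of HSFA6b beside the 2-fold mark depended on 1 library. Without dried replicate 2 its log2 fold change was 1.15, and without dried replicate 1 it was 0.73. HSFA3 stayed between 1.41 and 1.88 with any of the 4 libraries left out. On the scale of library totals the values were 1.10 for HSFA3 and 0.42 for HSFA6b, while the median of all genes moved to −0.60, against −0.05 with TMM normalisation. Relative to that median, HSFA3 was higher by 1.70 and HSFA6b by 1.02, close to the 1.72 and 0.98 with TMM. That scale also changed the balance of calls, of which 19.9% were higher in dried seeds with totals and 45.6% with TMM.

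The 2 dried libraries disagreed on the factors in opposite directions. Replicate 2 over replicate 1 gave a log2 difference of 0.46 for HSFA3 and of −0.42 for HSFA6b. Dried replicates were less alike than others in general: the median absolute log2 difference over 15794 well-measured genes was 0.354 in dried 7.2 seeds, 0.119 in fresh 7.2 seeds and 0.109 at stage 9. The differences of HSFA3 and HSFA6b exceeded those of 61.0% and 57.5% of these genes in dried seeds, so they were near the middle of the spread for that pair. Scaled to library totals alone, as CPM, HSFA3 had 12.7 and 12.8 in the dried replicates, and HSFA6b had 6.60 and 3.61. HSFA3 thus differed between the dried replicates on one scale and hardly on the other, while HSFA6b was lower in replicate 2 on both.

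Mature seeds were compared with dried immature seeds because both are dry but reached dryness at different stages. HSFA3 had 355 and 416 normalised counts at stage 9 and 322 and 442 in dried 7.2 seeds, so that the groups overlapped in normalised counts. As CPM they did not, with 14.9 and 17.2 at stage 9 and 12.7 and 12.8 in dried 7.2 seeds. Its log2 fold change of stage 9 over dried 7.2 seeds was −0.01 (SE 0.225). HSFA6b had 535 and 533 at stage 9 and 168 and 125 in dried 7.2 seeds, with no overlap. Its log2 fold change was 1.87 (SE 0.213), or 3.65-fold. Of 25797 genes tested, 2.76% were called higher and 5.02% lower at stage 9, and the change of HSFA6b exceeded that of 99.2% of genes and that of HSFA3 52.2%.

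The sign of the HSFA3 difference was not settled by these libraries. It ran between −0.20 and 0.24 with single libraries left out, and was 0.33 with library totals, a scale on which the median of all genes was 0.28. HSFA6b stayed between 1.65 and 2.10 with single libraries left out. The calls across all genes were fragile in this comparison: without stage 9 replicate 1 or 2, edgeR called 0 genes, with 3198 and 3898 genes at an unadjusted p under 0.05. DESeq2, run on all 4 libraries, called 804 genes higher and 1568 lower.

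Stage 9 was also compared with fresh 7.2 seeds. HSFA3 had 355 and 416 normalised counts at stage 9 and 134 and 109.9 in fresh 7.2 seeds, a log2 fold change of 1.63 (SE 0.138). HSFA6b had 535 and 533 at stage 9 and 76.4 and 77.2 in fresh 7.2 seeds, a log2 fold change of 2.78 (SE 0.113). For neither gene did the groups overlap. Of 29707 genes tested, 17.8% were called higher and 27.1% lower at stage 9, and the log2 fold change of HSFA3 exceeded that of 91.8% of genes and that of HSFA6b 97.4%.

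These 3 comparisons share libraries, so their values are not independent of each other. Set side by side, drying gave HSFA3 a log2 change equal to 103% of the change between fresh 7.2 seeds and stage 9. For HSFA6b drying gave 33.4% of it. Both shares moved with the setting: with library totals they were 77.1% for HSFA3 and 16.4% for HSFA6b, without dried replicate 1 they were 115.5% and 26.4%, and without dried replicate 2 they were 86.7% and 41.3%. In all of these settings the share was larger for HSFA3.

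The parting of the 2 factors can also be read within each library, where no scaling between libraries enters. The measure is the share of HSFA6b among the reads of both factors, with exact Clopper-Pearson 95% intervals for counting error. Transcript length affects the share and its change in percentage points, but not the change of the log2 ratio given further on. At stage 7.1 the share was 14.9% (6.20 to 28.3%), from 47 reads. In fresh 7.2 seeds it was 36.3% and 41.2%, and at stages 7.3, 8.1, 8.2 and 8.3 it was 38.4%, 43.0%, 35.6% and 41.7%. From stage 7.2 to stage 8.3 the shares of the fresh libraries lay between 35.6% and 43.0%, and their intervals all overlapped. Such overlap does not show that the proportion was constant, and the steps into stages 8.2 and 8.3 differed between the factors.

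The share left this band in stage 9 and in 1 dried library. At stage 9 it was 60.1% (57.0 to 63.2%) and 56.2% (52.7 to 59.6%), above every other library. In dried 7.2 seeds it was 34.3% (28.4 to 40.5%) in replicate 1 and 22.0% (19.5 to 24.7%) in replicate 2. Replicate 1 of the dried seeds lay within the range of the fresh 7.2 intervals, and replicate 2 lay below all fresh libraries except that of stage 7.1.

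Expressed as the log2 ratio of HSFA6b to HSFA3 reads, dried 7.2 seeds averaged −1.38 ± 0.625 and fresh 7.2 seeds −0.66 ± 0.213 (SD, n = 2 each), a difference of −0.72. Stage 9 averaged 0.48 ± 0.166 (SD, n = 2), which is 1.86 above dried 7.2 seeds and 1.14 above fresh 7.2 seeds. The difference between dried and fresh seeds was close to the SD of the dried pair, whose log2 ratios were −0.94 and −1.82. The differences of stage 9 from either group were larger than the SDs of the groups compared.

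**Figure D3:**
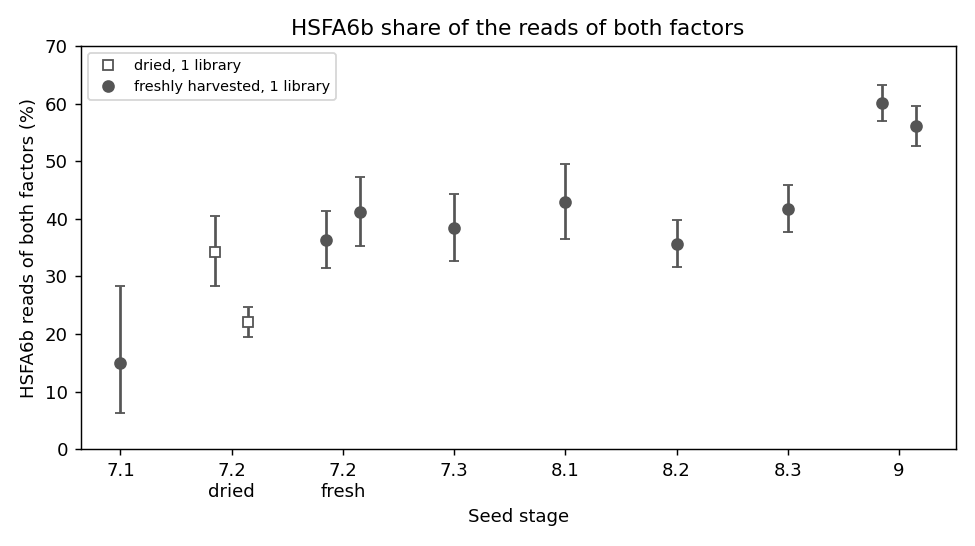
Share of HSFA6b in the reads of both factors (vertical axis, percent) by seed stage (horizontal axis); each point is 1 library, open squares are dried and filled circles freshly harvested seeds, and bars are exact Clopper-Pearson 95% intervals. Fresh libraries from stage 7.2 to stage 8.3 lie between 35.6 and 43.0%, the stage 9 libraries at 60.1 and 56.2%, and the dried libraries at 34.3 and 22.0%.

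Other heat shock factors were taken by name from the study's supplementary tables, which list genes that varied, were joined in its network or differed between stage 9 and dried seeds in these same libraries, so their calls are not independent evidence. Of the 10 found, 9 could be tested for drying: 1 was called higher and 1 lower, near the 15.0% and 17.9% of all genes, with a median log2 fold change of −0.56 against −0.05 over all genes. The one called higher was HSFB2a (Glyma.20G156800), a class B factor, with 7863 and 19920 normalised counts in dried 7.2 seeds and 1870 and 2086 in fresh 7.2 seeds, a log2 fold change of 2.83 (adjusted p = 0.00787). The one called lower, Glyma.04G039600, had 1 and 0 raw counts in dried 7.2 seeds and 15 and 12 in fresh 7.2 seeds. The number called lower changed from 0 with DESeq2 to 5 with library totals.

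In normalised counts HSFB2a, like HSFA3, had stage 9 levels that lay between those of its dried libraries. It had 11780 and 12420 normalised counts at stage 9, a log2 fold change of −0.22 over dried 7.2 seeds that was not called. That difference ran between −0.72 and 0.60 across the TMM, size factor, filter and left-out-library settings, and it was 0.18 with library totals.

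Both HSFA2 genes, which in Arabidopsis amplify and prolong the heat response, and the other gene named HSFA6b followed another order, with no call after drying and a call at maturity. With library totals, however, the other HSFA6b was called lower after drying (log2 fold change −1.43). For stage 9 against dried 7.2 seeds, 8 of the 10 could be tested, and 3 were called higher and 4 lower, against 2.76% and 5.02% of all genes. HSFA2 Glyma.04G052000 had 1430 and 1488 normalised counts at stage 9 and 341 and 391 in dried 7.2 seeds, a log2 fold change of 1.97. HSFA2 Glyma.14G096800 had 122.6 and 106 at stage 9 and 27.6 and 37.7 in dried 7.2 seeds, a log2 fold change of 1.73. The other HSFA6b, Glyma.10G029600, was rare, with 25 and 36 raw counts at stage 9 and 2 and 11 in dried 7.2 seeds (log2 fold change 2.44). It has the same best Arabidopsis match as `Glyma.03G157300.1` in those tables. The study's mapped reads are those with an unambiguous match, and whether any were assigned to the wrong gene of this pair was not tested.

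Unlike HSFA6b, the HSFA2 genes were not lowest at stage 7.1. Glyma.04G052000 had 1218 normalised counts at stage 7.1, 244 and 214 in fresh 7.2 seeds and 105.5 at stage 8.1. Over the 11 libraries its Pearson correlation with HSFA6b was 0.13, and with HSFA3 it was 0.10.

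The 4 called lower at stage 9 than in dried 7.2 seeds were both genes named HSFA9 and both genes named HSF34. HSFA9 is a factor of seed maturation in Arabidopsis and sunflower. The more abundant HSFA9, Glyma.17G053700, had 4155 and 6269 normalised counts at stage 9 and 27040 and 25930 in dried 7.2 seeds, a log2 fold change of −2.36. The other, Glyma.13G105700, had a log2 fold change of −1.22, which was −0.93 and not called with library totals. Although named HSFA9, it has HSFA2 as its best Arabidopsis match in the study's tables, as both HSFA2 genes do. The HSF34 genes Glyma.05G095900 and Glyma.17G174900 had −2.98 and −2.08. Each of the 7 calls between stage 9 and dried seeds was lost without either stage 9 library, as were all others in that comparison.

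For stage 9 against fresh 7.2 seeds, 9 of the 10 could be tested, and 4 were called higher and 5 lower, against 17.8% and 27.1% of all genes, in a list of genes named because they varied in these libraries. Those higher were both HSFA2 genes (2.65 and 2.00 on the log2 scale), HSFB2a (2.60) and the other HSFA6b (1.64). Those lower were both genes named HSFA9, both named HSF34 and Glyma.04G039600, with log2 fold changes between −2.22 and −3.83. The tenth gene, Glyma.20G150300, had 0 to 31 raw counts and was not tested in any comparison.

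**Figure D4:**
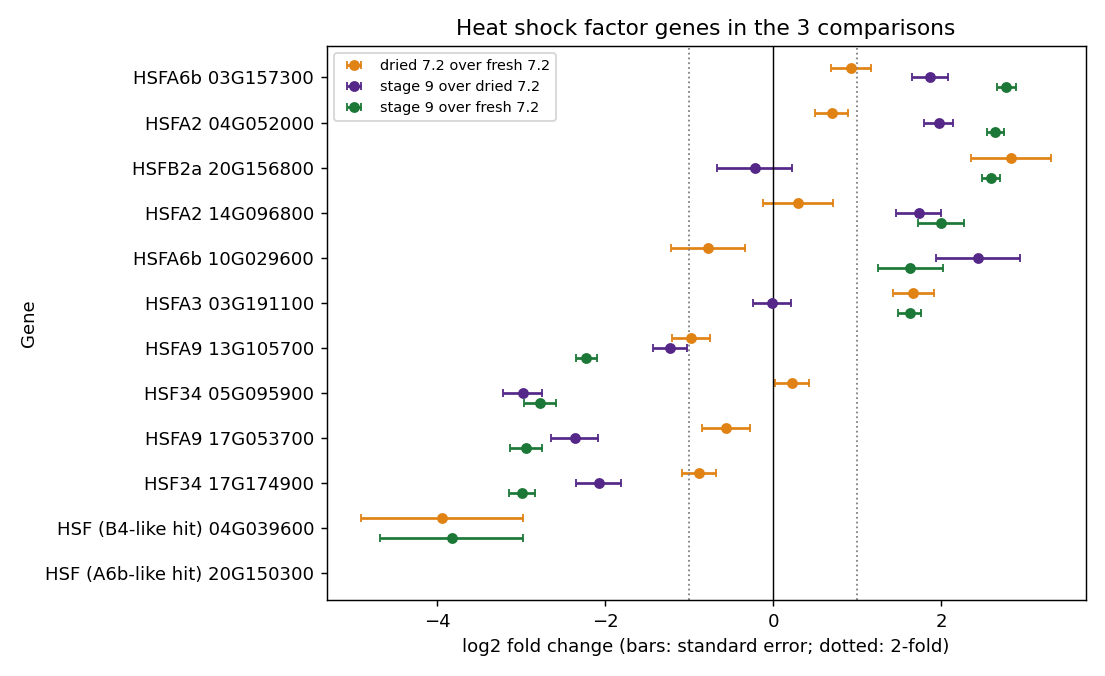
Log2 fold change (horizontal axis) of the named heat shock factor genes (vertical axis, identifiers without the prefix). Orange is dried over fresh 7.2 seeds, purple stage 9 over dried 7.2 seeds and green stage 9 over fresh 7.2 seeds. Bars are standard errors derived from the edgeR test, dotted lines mark 2-fold, and genes with no point were not tested. HSFA3 and HSFB2a have their purple points near 0 (−0.01 and −0.22), whereas HSFA6b and both HSFA2 genes have theirs between 1.73 and 1.97.

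DREB2 factors bind dehydration-responsive elements, and Arabidopsis DREB2A and DREB2C activate HSFA3. Of 6 named in the tables, 5 could be tested. In dried against fresh 7.2 seeds 3 were called higher, against 15.0% of all genes, and the other 2 were not called. Their median log2 fold change was 2.08, against −0.05 over all genes. DREB2A2 (Glyma.14G056200) had 17000 and 15810 normalised counts in dried 7.2 seeds and 2323 and 2412 in fresh 7.2 seeds, a log2 fold change of 2.81. DREB2A1 (Glyma.02G261700) had 19770 and 15830 in dried 7.2 seeds and 4039 and 4480 in fresh 7.2 seeds, a log2 fold change of 2.08.

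At stage 9 against dried 7.2 seeds, 1 of the 5 was called, and it was lower, a call that 5.02% of all genes had, whereas with library totals 1 was called and it was higher. DREB2A1 was the gene called lower, with 6696 and 7605 normalised counts at stage 9 and a log2 fold change of −1.33. DREB2A2 had 8899 and 9385 at stage 9 and −0.86, which was not called. Against fresh 7.2 seeds, 3 of the 5 were called higher at stage 9, against 17.8% of all genes, among them DREB2A2 (1.93) and DREB2D1 (Glyma.07G156200, 2.22). In normalised counts both genes named DREB2A were thus highest in the dried libraries. In the study's tables these 2 genes and DREB2D1 have the same best Arabidopsis match, AT2G40340. Another of the 5 tested, Glyma.08G137600, is named DREB2 but has AT4G39780 as its match. Membership of the DREB2 group was taken from names alone. Which soybean gene is the counterpart of Arabidopsis DREB2A was not settled here.

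Chaperone genes were read as the known targets of the family. All but 1 of the 27 small heat shock proteins named in the tables come from the study's list of differences between stage 9 and dried seeds, so the direction of that comparison was part of how they were listed. In dried against fresh 7.2 seeds, 24 of 26 tested were called higher, against 15.0% of all genes, and the other 2 were not called, with a median log2 fold change of 4.66, against −0.05 over all genes. At stage 9 against dried 7.2 seeds, 16 of 27 were called higher and 1 lower, against 2.76% and 5.02% of all genes, with a median of 1.86, against −0.05. At stage 9 against fresh 7.2 seeds 26 of 27 were called higher, against 17.8% of all genes, and the other was not called, with a median of 5.86, against −0.10.

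Among the most abundant, the small heat shock protein gene Glyma.08G212000 had 32860 and 31570 normalised counts at stage 9, 11520 and 13420 in dried 7.2 seeds and 2223 and 1942 in fresh 7.2 seeds. HSP18.1B (Glyma.14G063700) had 29190 and 31760 at stage 9, 6842 and 11500 in dried 7.2 seeds and 2861 and 3303 in fresh 7.2 seeds. The class I gene Glyma.14G063800 had 23090 and 27540 at stage 9, 7354 and 13660 in dried 7.2 seeds and 2011 and 2275 in fresh 7.2 seeds. Among these groups all 3 stood highest at stage 9, in the middle after drying and lowest in fresh 7.2 seeds, an order that HSFA6b also had. As all 3 come from the list of differences between stage 9 and dried seeds, that order was partly set by the listing. The 1 gene from outside that list, Glyma.01G106800, did not have this order in both dried libraries. It had 2990 and 3199 normalised counts at stage 9 and 1653 and 6914 in dried 7.2 seeds (log2 fold change −0.49, not called). Of the 27 genes, 25 had a positive log2 fold change in that comparison and 10 were not called, Glyma.14G063800 among them. The 1 called lower was Glyma.04G054500 (log2 fold change −2.61). For HSFA3, stage 9 and dried seeds overlapped in normalised counts but not as CPM, where stage 9 was higher.

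The larger chaperones, HSP70, HSP90 and HSP101 or ClpB, gave 11 named genes, all from the same list of differences. Drying called 2 of 9 tested higher and 1 lower, where 15.0% and 17.9% of all genes were called, with a median log2 fold change of 0.30, against −0.05 over all genes. Both higher ones were HSP90.1 genes. Glyma.09G131500 had 13300 and 10840 normalised counts in dried 7.2 seeds and 328 and 322 in fresh 7.2 seeds (log2 fold change 5.23), and Glyma.16G178800 had 6282 and 4923 in dried 7.2 seeds and 219 and 208 in fresh 7.2 seeds (4.73). At stage 9, 10 of 11 were called higher than in dried 7.2 seeds (median 1.68), against 2.76% of all genes, and 9 of 11 higher than in fresh 7.2 seeds (median 2.03), against 17.8%. The HSP70 gene Glyma.01G238600, with a log2 fold change of 0.95 in dried over fresh 7.2 seeds that was not called, was called higher at stage 9 than in fresh 7.2 seeds (1.98).

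Genes with a pattern like that of each factor were ranked by the Pearson correlation of log2(normalised count + 1) over the 11 libraries, taken among the 25049 genes that averaged 20 normalised counts or more. The libraries share the course of maturation, so high values are common, and they are given as a description. For HSFA3 the closest were Glyma.15G026600 (0.992), Glyma.01G241400, named as an SHW1 protein (0.989), and Glyma.18G171000 (0.987). Glyma.15G026600 had 1068 and 1233 normalised counts at stage 9, 1104 and 1564 in dried 7.2 seeds and 265 and 247 in fresh 7.2 seeds, so that on this scale, as for HSFA3, dried replicate 2 was the highest. In all, 597 genes had a correlation above 0.95 with HSFA3.

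For HSFA6b the closest were Glyma.07G051300 (0.984), Glyma.15G201300 (0.977) and Glyma.07G149500 (0.977), and 115 genes were above 0.95. Glyma.15G201300 had 309 and 285 normalised counts at stage 9, 154 and 159.7 in dried 7.2 seeds and 95.6 and 94.9 in fresh 7.2 seeds. The 2 factors correlated with each other at 0.90 over the 11 libraries and at 0.97 over the 9 fresh ones. Over the 11 libraries, HSFA6b came 2048th in the order of likeness to HSFA3, and HSFA3 came 1218th in that to HSFA6b. None of the 3 closest genes of either factor was among the 3 closest when the dried libraries were left out.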

How the data were processed

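RNA of whole soybean seeds was sequenced as single-end reads in 11 libraries. After trimming adaptors and discarding low complexity reads, the authors aligned the remainder to the Williams 82 genome (Bowtie2, per the submitters' processing notes) and deposited whole-number counts, not normalised, for 1 transcript of each of 56044 genes. The counting program and the handling of strand are not given in the sources used here. The study takes as mapped only reads with an unambiguous place in the genome. Its mapped totals equal the count totals for every library it lists, but how ambiguous reads were set apart is not given. A line without a gene name held 0 counts and was left out. Depth was 12881662 to 60626937 counts per library.

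Counts were analysed with R 4.3.3, edgeR 4.0.16, limma 3.58.1 and DESeq2 1.42.0, and with Python 3.11.15, numpy 2.4.6, scipy 1.17.1, pandas 2.3.3 and matplotlib 3.10.9. Levels used DESeq2 size factors over 11 libraries. Each comparison was fitted in edgeR to its own 4 libraries (TMM, filterByExpr, two-sided quasi-likelihood test) and called at a Benjamini-Hochberg adjusted p under 0.05 and a change of 2-fold or more in either direction. Scripts were tested on simulated data. The SE of a log2 fold change is its absolute value divided by the square root of the F statistic of the edgeR test. Alternatives were other normalisations, filters, tools and thresholds, a replicate block and left-out replicates. The scale of library totals (CPM for steps) was added after the data were seen.

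The 2 genes and the gene lists were chosen with earlier results of these data known. Gene names come from the study's text and supplementary tables, since 0 identifiers matched the reference gene table. Named besides the 2 factors are heat shock factors called in at least 1 comparison, up to 3 of the most abundant called genes of each other list and the 3 genes most like each factor. Factor-binding proteins and MBF1c were not analysed here, because those tables name none, nor were protein and promoter sequences.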

Additional observations from a re-analysis of the deposited data

How the results depend on the processing

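Most fold changes of the 2 factors shifted by less than the spread of their replicates, whereas counts of called genes moved. Exceptions were both drying changes with library totals, some steps in CPM and, in most settings, HSFA6b at stage 9 against fresh 7.2 seeds. The SDs of its log2 levels, the yardstick there, were only 0.011 in fresh 7.2 seeds and 0.0043 at stage 9. The cause of these shifts was not tested. For drying, 4507 genes were called higher and 5387 lower; these became 2926 and 2994 with at least 10 counts in every library, 2563 and 2301 at an adjusted p under 0.01, and 2394 and 9612 with library totals, which gave HSFA3 1.10 and HSFA6b 0.42. With a replicate left out they ran from 2263 to 6095 and from 2594 to 6931. For stage 9 against dried 7.2 seeds, 713 higher and 1296 lower became 1117 and 2404 with all 11 libraries in a single fit, 1422 and 3306 without a filter, 1168 and 751 with library totals (60.9% higher, against 35.5%), and 0 and 0 at an adjusted p under 0.01 in edgeR, where 8179 genes had an unadjusted p under 0.05 and DESeq2 called 1544 at that level. With a replicate left out they ran from 0 to 1967 and from 0 to 4193, the 0 without either stage 9 library.

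For stage 9 against fresh 7.2 seeds, genes called lower became 4671 with at least 10 counts in every library, and genes called higher 10231 without a fold threshold. HSFA6b, at 2.78, gave 2.83 with DESeq2, 2.83 with its size factors in edgeR, 2.80 with all 11 libraries, 2.64 with at least 10 counts, 2.58 with library totals and 2.77 to 2.82 with a replicate left out. In CPM, the step from stage 7.1 to 7.2 was 1.84 for HSFA3 and 3.68 for HSFA6b, and that from stage 8.2 to 8.3 was −0.31 and 0.066.

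Replicate numbers were not stated to mark a shared batch, and with 2 pairs no pairing could be read from the data (same-numbered deviations correlated at 0.09 to 0.18). With a replicate block, 4640 genes were called higher and 5432 lower for drying, 937 and 2070 for stage 9 against dried seeds, and 5281 and 8057 for stage 9 against fresh 7.2 seeds. With 2 libraries per group and 1 at most stages, differences near the spread of the dried pair could not be resolved.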
